A study of Mus musculus with 18 samples.

Results

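The 10 genes described here are Atf4, which encodes a transcription factor of the stress response, and 9 genes known as its targets or partners, measured as RNA in the brains of mouse pups given lead or saline. They were taken by name: Atf4, Ddit3, Trib3, Asns, Chac1 and Sesn2 form a stress arm, and Psat1, Phgdh, Shmt2 and Mthfd2 form a serine and folate arm. They are 10 of the 18194 genes that the array measures with a probe set annotated to exactly 1 symbol, and 24 such probe sets represent them. The brightest probe set by mean RMA value (a log2 summary of the array's probes) stands for each gene, and the others serve as a check. Another 2 Phgdh probe sets are annotated to a further symbol as well and were left out. Trib3 and Sesn2 lay below the brightness limit of 9.42, so 8 of the 10 members were among the 10916 genes tested.

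The pups were Mt-KO (-/-), HET (+/-) or wild-type (+/+) for a metallothionein knockout that had been crossed to C57BL/6J for at least 7 generations, and all 3 genotypes came from a final cross between siblings. Pups of each genotype received lead acetate at 50 mg/kg, 2 times a day and 4 h apart on postnatal days 7 and 8, or saline at the same times, and the brain was removed on day 8, 6 h after the final dose. RNA of 5 pups, labelled male and female, was pooled for each genotype and treatment and run on 1 Affymetrix mouse array, which gave 6 pools on 6 arrays and no replicate of any combination. The design asks what acute lead does to brain expression while synapses form, and whether the metallothionein genotype changes that. In pooled whole-brain RNA, fewer cells of a type and less RNA per cell cannot be told apart.

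ATF4 is the main effector of the integrated stress response. Kinases that sense amino acid shortage, misfolded protein, heme shortage or viral RNA phosphorylate the initiation factor eIF2alpha, general translation slows, and translation of Atf4 mRNA goes up. ATF4 protein then switches on genes for amino acid uptake, amino acid synthesis, tRNA charging and, under lasting stress, cell death. The control of ATF4 lies largely in translation, so the level of its mRNA is only part of its activity, while its target genes report on it at the RNA level. Serine made from glucose feeds glycine, one-carbon units, glutathione and membrane lipids, and in the brain the first enzyme of that route is concentrated in astrocytes and radial glia.

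ATF4 binds, with a C/EBP partner, to response elements with the core TGATGNAA. This core was searched on both strands in RefSeq promoter windows of GRCm38.p6, 250 bases before to 50 bases after each gene's start. The members were named as known targets or partners of ATF4, so sites for it are not independent of that choice. All 10 members had a window, and 3 of them held a match, Asns, Chac1 and Trib3, whereas 3.97% of 32851 windows and 4.51% of 27025 genes in the table held one. The ER stress element, a longer motif, was found in 0 of 10 members and in 0.119% of windows. Absence of these letters says only that the window does not hold them. The 3 matches are shown because they are the windows in which the core of the ATF4 site can be read, with the match in capitals, on the strand of the gene and with positions counted from the gene's start (the base before the start is -1). The first stretch runs from -100 to -1, on the minus strand at chr6:7693210-7693309, and its match lies at -23 to -16. The second runs from -250 to -151, on the plus strand at chr2:119350992-119351091, and its match reads TGATGNAA on the opposite strand at -193 to -186. The last runs from 7 to 30 after the start, on the minus strand at chr2:152344031-152344054, and its match is on the opposite strand at 15 to 22.
Asns: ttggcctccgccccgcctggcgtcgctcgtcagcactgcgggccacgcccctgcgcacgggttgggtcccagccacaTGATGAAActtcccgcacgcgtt
Chac1: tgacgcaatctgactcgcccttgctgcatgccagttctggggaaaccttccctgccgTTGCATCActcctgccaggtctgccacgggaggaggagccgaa
Trib3: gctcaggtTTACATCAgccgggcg

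All levels below are deposited RMA values on the log2 scale. The median of the tested genes differed between arrays, from 10.87 in the wild-type lead pool to 11.05 in the wild-type saline pool. As a result the median gene differed between lead and saline by 0.09 in the Mt-KO pair, 0.15 in the HET pair and -0.18 in the wild-type pair, and the difference within each pair is therefore given from the median gene of that pair. In Gapdh, a control gene, the difference between 3' and 5' probe sets was 0.54 to 0.82 in 5 pools and 1.19 in wild-type saline, so that pool also stood apart in this sign of RNA quality. Values without that array are given with the lead and genotype results. Genes were tested with limma, in an additive fit in which the 3 genotypes stand in as replicates of lead minus saline and the 2 treatments as replicates of each genotype difference.

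None of the 10 genes changed with lead past the threshold, and none differed by 1.5-fold between any lead pool and its saline pool. Atf4, the transcription factor itself, measured 12.49 and 12.52 in the Mt-KO lead and saline pools, 12.52 and 12.46 in the HET lead and saline pools, and 12.39 and 12.78 in the wild-type lead and saline pools. The wild-type saline pool was the highest and the wild-type lead pool the lowest, and the other 4 pools lay within the interval between them. From the median gene, lead minus saline was -0.12 in the Mt-KO pair, -0.10 in the HET pair and -0.21 in the wild-type pair, with a mean of -0.14 ± 0.06 (SD, n = 3 pairs). The limma coefficient was -0.12 (SE 0.18, 95% interval -0.48 to 0.23, adjusted p = 1). Atf4 was thus below the median gene in all 3 pairs. The fit used the values as deposited, and its coefficient was smaller than its SE. After each array was centred on its median the Atf4 coefficient was -0.14 (limma adjusted p = 0.9994).

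Asns, asparagine synthetase, makes asparagine and is one of the best known ATF4 targets. It measured 12.93 and 12.95 in the Mt-KO lead and saline pools, 13.12 and 12.95 in the HET lead and saline pools, and 12.87 and 13.22 in the wild-type lead and saline pools. As with Atf4, the wild-type pair held both extremes, and its arrays also held those of the median over tested genes. Lead minus saline from the median gene was -0.11, 0.02 and -0.17 in the Mt-KO, HET and wild-type pairs (mean -0.09 ± 0.10, SD, n = 3), so the pairs did not share a sign. Ddit3 encodes CHOP, a transcription factor of lasting stress that promotes cell death. Its levels spanned only 0.18, with 10.15 and 10.13 in the Mt-KO lead and saline pools, 10.15 and 10.10 in the HET lead and saline pools, and 9.97 and 10.10 in the wild-type lead and saline pools. From the median gene the lead difference averaged -0.04 ± 0.08 (SD, n = 3). Chac1, an enzyme that degrades glutathione, measured 10.32 and 10.27 in the Mt-KO lead and saline pools, 10.30 and 10.26 in the HET lead and saline pools, and 10.24 and 10.43 in the wild-type lead and saline pools. Its lead difference from the median gene averaged -0.05 ± 0.05 (SD, n = 3), and lead and saline levels overlapped.

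Trib3, a pseudokinase that restrains AKT and ATF4 signalling, was too dim to enter the main test. It measured 8.94 and 8.96 in the Mt-KO lead and saline pools, 9.20 and 9.06 in the HET lead and saline pools, and 9.15 and 9.09 in the wild-type lead and saline pools, so the Mt-KO pools were the lowest. Sesn2, a sestrin that senses leucine and restrains growth signalling, was also too dim. Its values were 9.34 and 9.24 in the Mt-KO lead and saline pools, 9.12 and 9.37 in the HET lead and saline pools, and 9.18 and 9.26 in the wild-type lead and saline pools. The HET pair held both of its extremes, with lead minus saline at -0.40 from the median gene, while the Mt-KO and wild-type pairs were at 0.00 and 0.11. When all 18194 genes were fitted without the brightness limit, the lead coefficient was 0.06 (SE 0.10) for Trib3 and -0.08 (SE 0.10) for Sesn2, each with a limma adjusted p of 1.

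In the serine and folate arm, Phgdh encodes the dehydrogenase that commits a glycolytic intermediate to serine synthesis. It measured 13.07 and 13.14 in the Mt-KO lead and saline pools, 12.98 and 13.03 in the HET lead and saline pools, and 13.11 and 12.96 in the wild-type lead and saline pools. The signs differed between genotypes: from the median gene, lead minus saline was -0.16 in the Mt-KO pair, -0.20 in the HET pair and 0.33 in the wild-type pair (mean -0.01 ± 0.29, SD, n = 3). Psat1, the aminotransferase of the next step, measured 11.89 and 11.51 in the Mt-KO lead and saline pools, 11.76 and 11.61 in the HET lead and saline pools, and 11.57 and 11.69 in the wild-type lead and saline pools. The Mt-KO lead pool was the highest and the Mt-KO saline pool the lowest. From the median gene, lead minus saline was 0.28 in the Mt-KO pair, 0.00 in the HET pair and 0.05 in the wild-type pair, with a mean of 0.11 ± 0.15 (SD, n = 3), and the limma coefficient was 0.13 (SE 0.15, 95% interval -0.16 to 0.43, adjusted p = 1).

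Shmt2, the mitochondrial enzyme that splits serine into glycine and a one-carbon unit, measured 10.43 and 10.19 in the Mt-KO lead and saline pools, 10.31 and 10.10 in the HET lead and saline pools, and 10.08 and 10.25 in the wild-type lead and saline pools. Its brightest probe set was above the median gene in all 3 pairs, by 0.14, 0.07 and 0.01 in the Mt-KO, HET and wild-type pairs. The mean of the pairs was 0.08 ± 0.07 (SD, n = 3). As deposited, the coefficient was 0.10 (SE 0.12, limma adjusted p = 1). After each array was centred on its median it was 0.08 (limma adjusted p = 0.9994). Mthfd2, the mitochondrial folate enzyme that oxidises that one-carbon unit, measured 10.82 and 10.76 in the Mt-KO lead and saline pools, 10.88 and 10.75 in the HET lead and saline pools, and 10.52 and 10.88 in the wild-type lead and saline pools. The wild-type lead pool was the lowest, and lead minus saline from the median gene was -0.03, -0.02 and -0.17 in the Mt-KO, HET and wild-type pairs. Over the tested members the range across the 6 pools was 0.18 to 0.39 with a median of 0.35, and the median over all tested genes was 0.34.

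**Figure D1:**
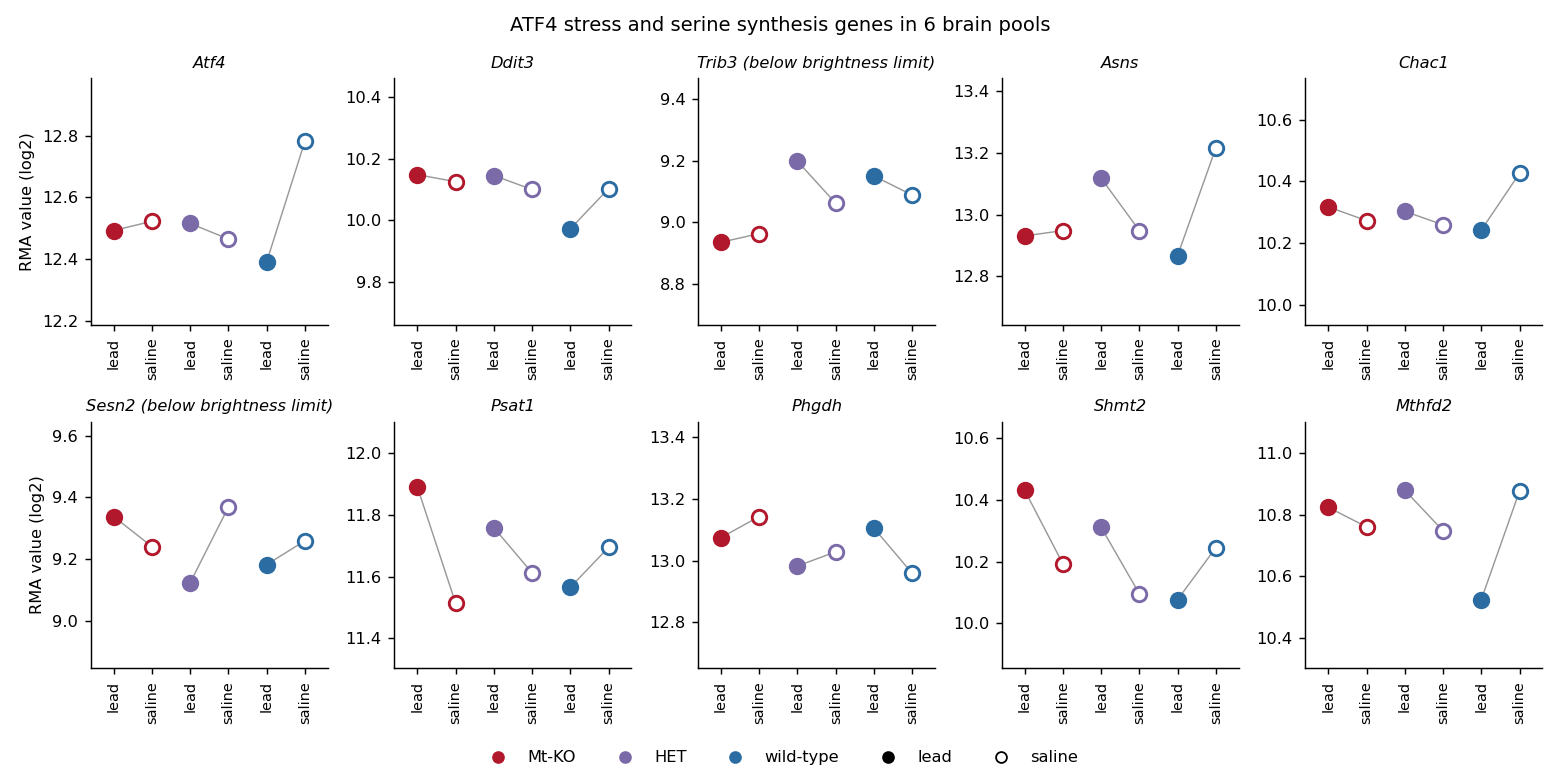
RMA level (log2, vertical axis, each panel spanning the same height) of the brightest probe set of each of the 10 genes in the 6 pools, lead filled and saline open, with a line joining the lead and saline pools of a genotype. Atf4, Asns and Chac1 have both extremes in the wild-type pair, whose arrays also have the lowest and highest median over tested genes. From the median gene, Chac1 differed by -0.0006 within that pair. Psat1 has both extremes in the Mt-KO pair, and the widest span, that of Atf4, is 0.39.

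The lead comparison called 0 of 8 members, against 0.119% of all genes tested (13 of 10916, of which 9 were higher and 4 lower with lead). The number of genes with an unadjusted limma p below 0.05 was 167, and it held no member, since the smallest member p was 0.381. All 8 intervals of 95% for the lead coefficient lay within 1.5-fold in either direction (0.585 on the log2 scale), from a lowest bound of -0.48 for Atf4 to a highest bound of 0.43 for Psat1. These bounds rest on a spread that limma took from genes of similar brightness, as no combination was replicated. The 4 tested genes of the stress arm had coefficients from -0.12 (Atf4) to -0.02 (Ddit3), and all 4 were below the coefficient of the median gene, 0.02. The 4 genes of the serine and folate arm ran from -0.05 (Mthfd2) to 0.13 (Psat1), with 2 above and 2 below the median gene. Over the 8 tested members the median coefficient was -0.03.

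**Figure D2:**
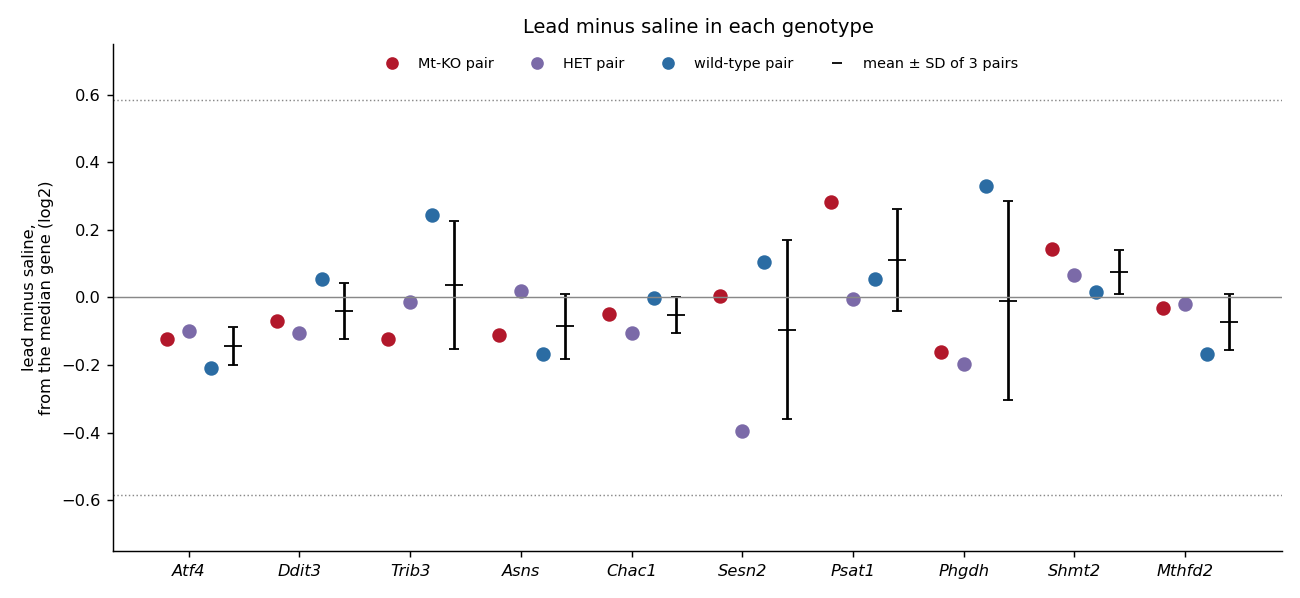
Lead minus saline from the median gene (log2, vertical axis) in the Mt-KO, HET and wild-type pairs for each of the 10 genes, with the mean and SD of the 3 pairs in black and dotted lines at 1.5-fold. Every point lies within the dotted lines, and the 3 Atf4 points lie between -0.21 and -0.10.

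Within single pairs, where no test is possible, 0 of 8 members passed 1.5-fold from the median gene in the Mt-KO, HET or wild-type lead minus saline difference. The shares of all tested genes past that limit were 0.311%, 0.44% and 1.64%. Phgdh in the wild-type pair (0.33) was the tested member farthest from the median gene.

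The lead values depended on the wild-type pair. Without it the fit called 24.1% of all genes, the median coefficient of all genes was 0.12 and 2 members were called, Psat1 at 0.26 (limma adjusted p = 0.0138) and Shmt2 at 0.23 (limma adjusted p = 0.0285). With the wild-type lead or the wild-type saline array left out alone, the same 2 members were called among 24.0% of genes in each case. Without the pair, Atf4, Ddit3, Asns, Chac1 and Mthfd2 had coefficients above 0, from 0.01 to 0.10, and Phgdh one of -0.06. In that fit of the Mt-KO and HET pairs, by brightest probe sets, only Psat1 and Shmt2 stood above the median gene among tested members. Both are of the serine and folate arm, and the other Shmt2 probe sets were below the median gene in the HET pair. Leaving out the Mt-KO or the HET pair called no member.

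As deposited, the members' lowest levels often fell in the wild-type lead pool, whose array had the lowest median over tested genes (10.87). The highest median was that of wild-type saline (11.05), and the counts below were not adjusted for these medians. Of the 8 tested members, 6 had their lowest level in the wild-type lead pool, as did 33.9% of all tested genes. The highest level was in the wild-type saline pool for 3 members (41.6% of all tested genes) and in the Mt-KO lead pool for another 3 (15.1%).

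For genotype, the question is whether loss of metallothionein changes these genes in brains that share the same treatments. No member differed between Mt-KO and wild-type brain past the threshold (0 of 8, against 0.431% of all genes, 47 of 10916). The unadjusted limma p was below 0.05 for 382 genes and for no member. Shmt2 had the largest coefficient of the members, 0.15 (SE 0.15, 95% interval -0.14 to 0.44, limma adjusted p = 1). By brightest probe sets, all 4 genes of the serine and folate arm were above the median gene in this comparison. Mthfd2 was at 0.09, Phgdh at 0.08 and Psat1 at 0.07 against -0.03 for the median gene, and each interval included 0. Over all probe sets of a gene, the difference ran from -0.29 to 0.07 for Psat1 and from -0.07 to 0.09 for Phgdh. It ran from 0.05 to 0.26 for Shmt2 and from 0.09 to 0.19 for Mthfd2. In the stress arm Ddit3 was at 0.10, Chac1 at -0.04, Atf4 at -0.08 and Asns at -0.10. The intervals of 7 members lay within 1.5-fold, and that of Asns reached -0.60. Without the brightness limit Trib3 was at -0.17 (SE 0.12) and Sesn2 at 0.07 (SE 0.13), each with a limma adjusted p of 1.

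HET against wild-type brain called 0 of 8 members, against 0.119% of all genes, with 131 genes below an unadjusted limma p of 0.05. The members' coefficients ran from -0.10 for Atf4 to 0.11 for Mthfd2, with a median of 0.02 beside 0.00 for all genes, and the adjusted p of each was 1. All 8 intervals lay within 1.5-fold.

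**Figure D3:**
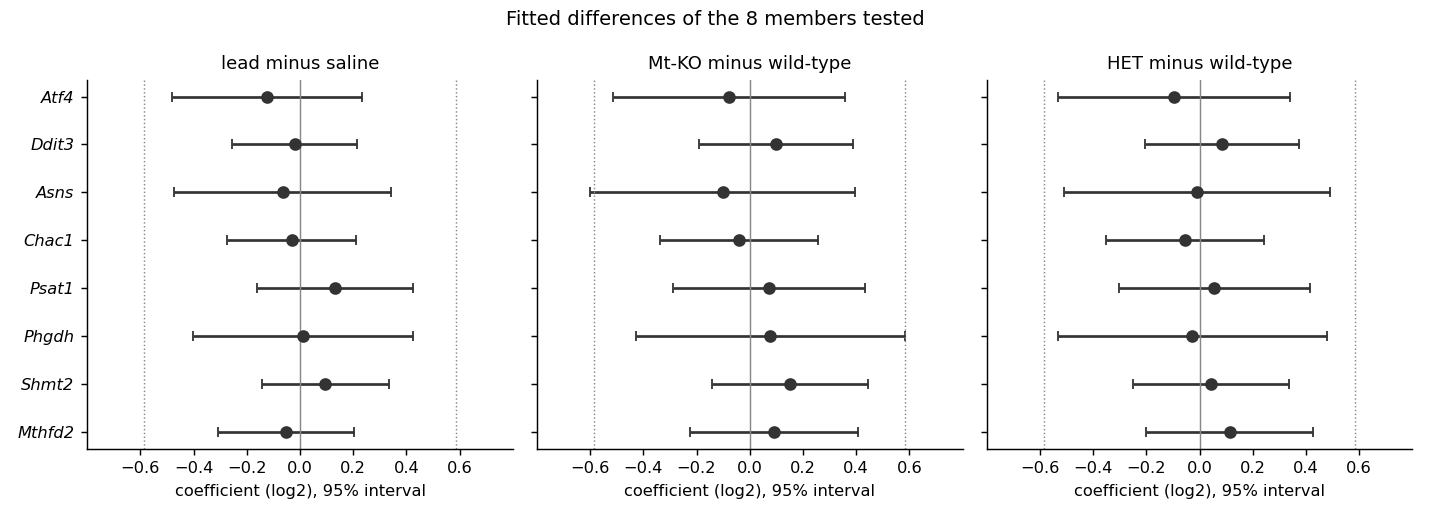
Fitted coefficients (log2, horizontal axis) of the 8 tested members for lead minus saline, Mt-KO minus wild-type and HET minus wild-type, with 95% intervals from limma and dotted lines at 1.5-fold. Every interval crosses 0, and the Asns interval for Mt-KO minus wild-type, which reaches -0.60, is the only one to cross a dotted line.

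The genotype values also turned on the wild-type arrays, which differ from each other in overall level. Without the wild-type lead array, 40.1% of all genes were called for Mt-KO with a median of -0.16, and Atf4 at -0.28 (limma adjusted p = 0.0339) and Asns at -0.315 (limma adjusted p = 0.0467) were among them. Without the wild-type saline array, 22.3% were called with a median of 0.11, and Psat1 at 0.27 (limma adjusted p = 0.0392), Shmt2 at 0.35 (limma adjusted p = 0.0124) and Mthfd2 at 0.32 (limma adjusted p = 0.0146) were among them. For HET, Atf4 was at -0.30 without the wild-type lead array, where the median gene was at -0.15. Psat1 was at 0.25 and Mthfd2 at 0.34 without the wild-type saline array, where the median gene was at 0.15. In each of these fits the lone wild-type array is assumed to vary like the other pools.

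Within 1 treatment, no member passed 1.5-fold between genotypes. After lead, Mt-KO against wild-type brain gave 0 of 8 members and 0.843% of all genes, and Shmt2 was the highest member at 0.26 from the median gene. After saline the same genotypes gave 0 of 8 members and 3.02% of all genes, and Phgdh was the highest member at 0.33. Phgdh after lead was at -0.13 in that genotype comparison, so its sign differed between the treatments. HET against wild-type brain gave 0 of 8 members in either treatment, with 0.504% of all genes past 1.5-fold after lead and 1.31% after saline. Mt-KO against HET brain likewise gave 0 of 8, with 0.403% of all genes after lead and 0.275% after saline. These genotype pairs share arrays with each other and with the lead comparisons.

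Whether the lead difference depends on genotype was tested as a change in lead minus saline per intact metallothionein allele (0 in Mt-KO, 1 in HET, 2 in wild-type). No member was called (0 of 8, against 3.77% of all genes, 412 of 10916). The unadjusted limma p was below 0.05 for 2194 genes and for 1 member, Psat1 (0.0491). As deposited, the median gene itself had a coefficient of -0.15 per allele, and the members' median was -0.17. Psat1 had the lowest coefficient, -0.25 per allele (SE 0.13, limma adjusted p = 0.247). Its lead minus saline as deposited was 0.38 in Mt-KO, 0.15 in HET and -0.13 in wild-type brain. From the median gene the same differences were 0.28, 0.00 and 0.05, which did not change steadily with the number of alleles. After each array was centred on its median, the Psat1 coefficient was -0.12 (limma adjusted p = 0.418). Mthfd2 was at -0.21, Shmt2 at -0.20, Atf4 at -0.18 and Asns at -0.17 per allele, none of which passed. With centred arrays these genes were at -0.07, -0.07, -0.04 and -0.03. As deposited, Phgdh was the only member above 0, at 0.11 per allele, and limma gave no adjusted p under the threshold for it either. With the mean over its probe sets Phgdh was at -0.065.

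The other probe sets of the same genes were used as a check. Over all 24 the mean lead minus saline as deposited ran from -0.16 to 0.26 with a median of 0.03, and 15 were above 0. Of the 9 genes with several probe sets, 5 had both signs. Atf4 probe sets disagreed within pairs: its second brightest probe set was at 0.27, 0.19 and -0.46 from the median gene in the Mt-KO, HET and wild-type pairs, and its dimmest at -0.23, -0.32 and 0.03. A place below the median gene in all 3 pairs, as with the brightest probe set, was therefore not shared by the others. The dimmest lay at 8.97 to 9.21, below the brightness limit of 9.42, so it is a weak check. Over the 6 pools these probe sets correlated with the brightest one at r = 0.28 and r = 0.29.

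Phgdh also depended on the probe set. The 3 dimmer Phgdh probe sets were above the median gene in every pair, at 0.09, 0.14 and 0.05, at 0.21, 0.09 and 0.42, and at 0.12, 0.13 and 0.05 in the Mt-KO, HET and wild-type pairs. The brightest was below it in the Mt-KO and HET pairs. Their correlation with the brightest over the 6 pools ran from -0.41 to 0.46. With GC-RMA the probe set brightest by RMA was at 8.51 to 9.46 and the other 3 at 11.36 to 12.32. The order of brightness thus depended on the algorithm. Most Phgdh and Shmt2 probe sets carry a suffix of the array maker for probes that can match other transcripts. The second probe sets of Atf4, Asns and Trib3 carry it too. Sharing of signal with related sequences is therefore possible and was not tested. In the HET pair the 3 dimmer Shmt2 probe sets were all below the median gene, at -0.08, -0.01 and -0.36. They were at -0.19, -0.09 and 0.11 in the Mt-KO pair and at 0.25, 0.32 and 0.37 in the wild-type pair. Their correlation with the brightest Shmt2 probe set ran from -0.24 to 0.38. For Psat1 the second probe set was at 0.22 in the Mt-KO pair, near the brightest. It differed from the brightest in sign in the HET (0.12) and wild-type (-0.08) pairs. In the Mt-KO and HET pairs the second Mthfd2 probe set was at 0.22 and 0.27, whereas the brightest was at -0.03 and -0.02. The second Asns probe set correlated with the first at r = 0.75 over the 6 pools. It was at 0.02, 0.16 and -0.12 in the Mt-KO, HET and wild-type pairs, against -0.11, 0.02 and -0.17 for the brightest. The Mt-KO pair thus differed in sign.

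**Figure D4:**
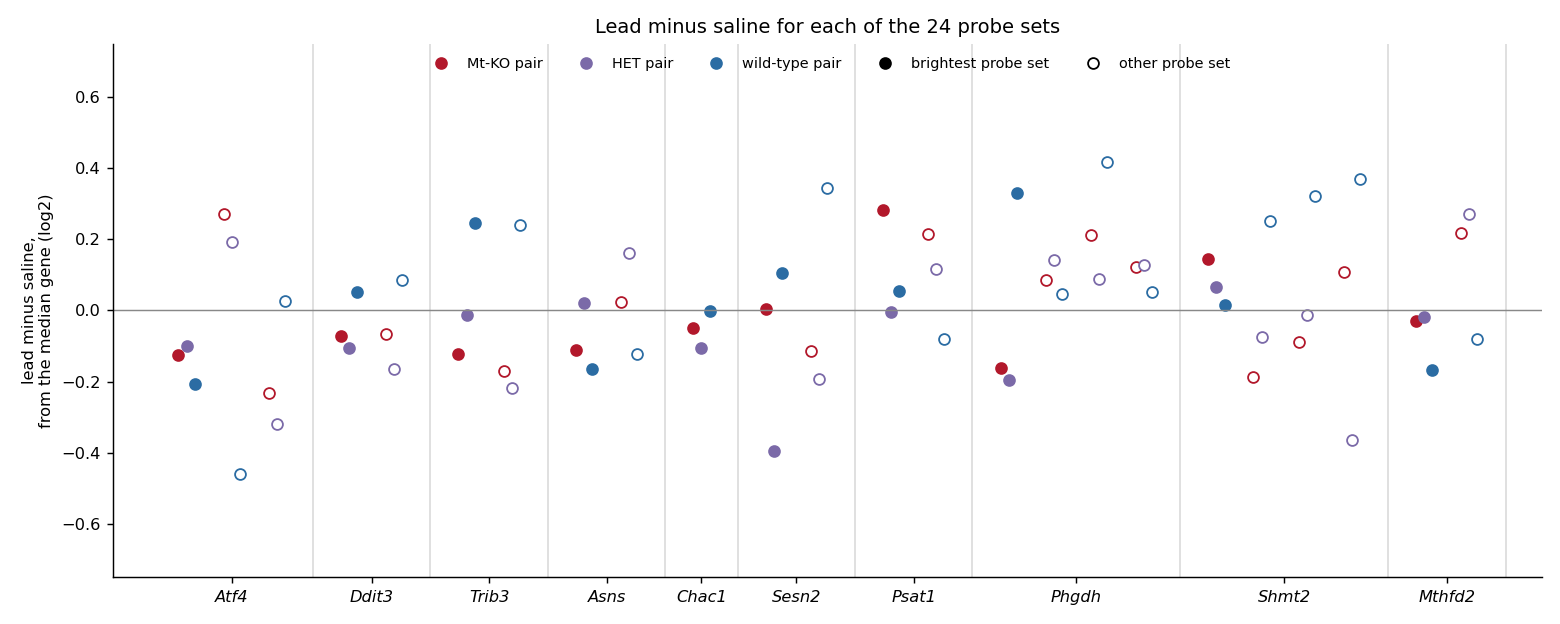
Lead minus saline from the median gene (log2, vertical axis) for each of the 24 probe sets, grouped by gene along the horizontal axis, with the brightest probe set filled and the others open, and the Mt-KO, HET and wild-type pairs in colour. The second Atf4 probe set spans 0.27 in the Mt-KO pair to -0.46 in the wild-type pair, and the 3 dimmer Phgdh probe sets have every point above 0.

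The tested members did not vary as 1 block. After each array was centred on its median, the 28 pairs of members had a median Pearson r of -0.08 over the 6 pools, 11 of them positive, which is a description of 6 points that share the same arrays. By brightest probe sets, the highest of the 28 were Shmt2 with Psat1 (r = 0.74) and Atf4 with Asns (r = 0.74) and Chac1 (r = 0.69). Other probe sets of the same gene correlated with the brightest at 0.28 to 0.29 for Atf4, 0.13 for Psat1 and -0.24 to 0.38 for Shmt2. For Asns that value was 0.75, and Chac1 has 1 probe set. The profiles of Atf4, Psat1 and Shmt2 thus depended on the probe set. Across the arms the signs were opposite for several pairs: Asns against Shmt2 gave r = -0.71 and Asns against Psat1 r = -0.68. Among the 10915 other tested genes, those most like Atf4 were Rgs20 (r = 0.987), Bsdc1 (0.986) and Pafah2 (0.980). Phgdh was most like Tnfrsf11a (0.990), Efna4 (0.986) and Tbrg4 (0.984). Each was picked as among the highest of 10915 values over 6 points, so a high r follows from the choice and shows no link. The Phgdh profile is that of its brightest probe set, with which the other Phgdh probe sets correlated at -0.41 to 0.46.

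Upstream of ATF4, the sensor kinases, phosphatase subunits and eIF2B subunits gave no call. Of 14 genes listed, 12 were tested, and limma called 0 for lead, for Mt-KO, for HET or for the interaction, with 0 below an unadjusted p of 0.05. Their median lead coefficient was -0.01 from the median gene, with 6 above and 6 below. The heme-sensing kinase Eif2ak1 had a lead coefficient of -0.05 (SE 0.13), the endoplasmic reticulum kinase Eif2ak3 0.03 (SE 0.13), the amino acid sensor Eif2ak4 0.10 (SE 0.11) and the stress-induced phosphatase subunit Ppp1r15a -0.04 (SE 0.12), each with a limma adjusted p of 1.

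Other targets and partners of ATF4 gave no call for lead. Of 20 listed genes 12 were tested and limma called 0 for lead, Mt-KO or HET, with 0 below an unadjusted p of 0.05, with a median lead coefficient of -0.01 from the median gene. The related factor Atf5 was at 0.02 (SE 0.12) and Ddit4, an inhibitor of mTORC1, at -0.12 (SE 0.16), each with a limma adjusted p of 1. Atf3 and Cebpb, stress-induced transcription factors, were below the brightness limit, with Atf3 at 8.02 to 8.22 after lead and 8.09 to 8.23 after saline. In the interaction 2 of the 12 were called, both lower per intact allele, against 3.77% of all genes, of which 365 of 412 were lower. Cebpg, a binding partner of ATF4, was at -0.36 (SE 0.11, limma adjusted p = 0.0433), with lead minus saline from the median gene of 0.10, 0.03 and -0.35 in the Mt-KO, HET and wild-type pairs. Aldh18a1, the first enzyme of proline synthesis, was at -0.40 (SE 0.12, limma adjusted p = 0.0333), with 0.26, -0.05 and -0.25 in the same pairs. After each array was centred on its median neither passed, with Cebpg at -0.23 and Aldh18a1 at -0.26 (limma adjusted p = 0.206 and 0.101). Cebpg also depended on single arrays, at -0.04 without the wild-type lead array (limma adjusted p = 1) and -0.69 without the Mt-KO lead array (limma adjusted p = 0.00442). Leaving out 1 array at a time put Aldh18a1 between -0.52 and -0.28, and it passed only without the HET lead array.

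Amino acid transporters of the ATF4 program gave 0 limma calls among 7 tested of 10 listed, in each of the 4 comparisons, with 1 below an unadjusted p of 0.05 in the interaction and 0 in the others. Slc7a5 and Slc3a2, which together form a transporter of large neutral amino acids, had lead coefficients of 0.10 (SE 0.17) and 0.05 (SE 0.20), and the serine transporter Slc1a4 was at -0.02 (SE 0.15). The cystine transporter Slc7a11 was below the brightness limit, at 8.81 and 8.52 in the Mt-KO lead and saline pools, 8.44 and 8.45 in the HET lead and saline pools, and 8.20 and 8.53 in the wild-type lead and saline pools. Of 20 cytosolic aminoacyl-tRNA synthetases, which charge tRNAs with amino acids, 18 were tested and limma called 0 in any of the 4 comparisons, with 1 below an unadjusted p of 0.05 for Mt-KO and 1 for the interaction. Their median lead coefficient was 0.04 from the median gene, and Mars1 was at -0.03 (SE 0.13).

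Among other enzymes of serine, glycine and folate metabolism, 12 of 18 were tested and limma called 0 for lead or HET, with 0 below an unadjusted p of 0.05. Psph, the last enzyme of serine synthesis, had a lead coefficient of -0.09 (SE 0.12), the cytosolic enzymes Shmt1 and Mthfd1 -0.03 (SE 0.12) and 0.13 (SE 0.16), the mitochondrial Mthfd1l 0.10 (SE 0.12), and Gldc, the glycine decarboxylase, 0.07 (SE 0.12), each with a limma adjusted p of 1. Mthfd1 from the median gene was at 0.52 in the Mt-KO pair, -0.20 in the HET pair and 0.02 in the wild-type pair. Psph was called in the interaction at -0.35 per allele (SE 0.11, limma adjusted p = 0.0464), with 0.11, -0.12 and -0.31 in the Mt-KO, HET and wild-type pairs, and it did not pass after arrays were centred (-0.21, limma adjusted p = 0.202). Leaving out 1 array at a time put Psph between -0.44 and -0.26, and it passed only without the HET lead array.

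Srr, serine racemase, makes the NMDA receptor co-agonist D-serine from L-serine, and its brightest probe set was higher in Mt-KO brain. It measured 12.53 and 12.84 in the Mt-KO lead and saline pools, 11.14 and 12.33 in the HET lead and saline pools, and 11.95 and 11.13 in the wild-type lead and saline pools. The Mt-KO pools were the highest. From the median gene, lead minus saline was -0.40 in the Mt-KO pair, -1.34 in the HET pair and 0.9996 in the wild-type pair. These differences did not change steadily with the number of intact alleles. The coefficient of Mt-KO against wild-type was 1.14 (SE 0.20, limma adjusted p = 3.9e-06), and that of the interaction was 0.56 per allele (SE 0.14, limma adjusted p = 0.00464). The other 5 Srr probe sets differed between Mt-KO and wild-type by -0.12 to 0.29. With the mean over its probe sets Srr was at 0.26 for Mt-KO (limma adjusted p = 1) and 0.02 for the interaction (limma adjusted p = 0.931). The Mt-KO call was kept with PLIER (1.39, limma adjusted p = 1.98e-05) and lost at a value about as large or larger with GC-RMA (1.68, limma adjusted p = 0.915), quantile normalization (1.21, limma adjusted p = 0.488), centred arrays (1.14, limma adjusted p = 0.363), no brightness limit (1.14, limma adjusted p = 0.882) and eBayes without a trend (1.14, limma adjusted p = 1). It was also lost without the Mt-KO lead array (1.20, limma adjusted p = 1) or the Mt-KO saline array (1.08, limma adjusted p = 0.9999). Without the wild-type saline array the Mt-KO value was 0.36 (limma adjusted p = 0.108) and that of the interaction 0.21 (limma adjusted p = 1), and without the wild-type lead array the interaction was -0.53 (limma adjusted p = 0.871). Without the Mt-KO lead or the Mt-KO saline array the interaction was 1.66 or 0.91 and was called.

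Markers of brain cell types and regions differed between these pools too. All 12 of 12 astrocyte markers were tested, 12 lay above the median gene for lead and 0 were called, and their mean level above the array median was 0.98, 1.19 and 1.20 in the Mt-KO, HET and wild-type lead pools against 0.88, 0.99 and 0.99 in the matching saline pools. Of 12 cerebellum markers 11 lay above the median gene for lead and 2 were called, and their mean level was 0.75, 0.73 and 0.84 after lead against 0.49, 0.50 and 0.26 after saline. All 10 neuron markers lay below the median gene for Mt-KO against wild-type, with a median of -0.35 from it and 0 called. Astrocytes carry much of the serine synthesis of the brain, and the part of these shifts in the members' values was not tested. The pools differed in sex-linked RNA, most within the Mt-KO pair. The Y-linked Eif2s3y was at 11.16 and 6.50 in the Mt-KO lead and saline pools, 10.16 and 9.93 in HET, and 9.445 and 10.45 in wild-type. The female-expressed Xist was at 10.23 and 12.75 in the Mt-KO lead and saline pools, 12.04 and 12.19 in HET, and 12.20 and 11.91 in wild-type. The Mt-KO saline pool thus had the lowest Eif2s3y and the highest Xist, though the pups are labelled male and female. Psat1's difference of 0.28 in the Mt-KO pair is thus also one between pools of different sex-linked expression. The same holds for Mt-KO against wild-type in either treatment. Growth hormone (Gh), a pituitary RNA, measured 11.48 in the HET lead pool and 9.29 to 9.83 in the others.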

How the data were processed

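The 6 arrays were deposited as 18 columns, 1 for each array and each of 3 algorithms, and algorithms were not counted as replicates. Partek, RMA, GCRMA and PLIER are named as tools per the submitters' processing notes, and their versions are not given in the sources used here. Values deposited by the authors from RMA and GC-RMA are log2 levels. Those from PLIER are deposited linear intensities, and were used as log2(value + 16). Of 45101 probe sets, 34958 had 1 symbol and 34754 of those were found by gene identifier in the RefSeq table. The upper 60% of genes by mean RMA value entered limma (version 3.58.1, R 4.3.3, lmFit and eBayes with a trend, two-sided, adjusted p under 0.05 by Benjamini-Hochberg). The fits leave 2 residual degrees of freedom, and with RMA limma found an infinite prior, so every gene was given the spread of genes as bright as itself. The kit named in the labels is made for whole-transcript arrays, but the probe sets belong to a 3' array. Members and lists were chosen with earlier results of these data known. Named genes are all members, a set list of pathway genes, pathway genes that passed, and the 3 genes most like Atf4 and Phgdh. Alternatives covered the algorithm, scaling, filter, probe set, prior and arrays left out. The number of arrays limits the precision.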

Additional observations from a re-analysis of the deposited data

Results flagged for a closer look

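Among the tested genes of the surrounding pathway lists (12 of signalling, 12 targets and partners, 7 transporters, 18 synthetases and 12 enzymes), none of them members, 4 interactions of lead with the number of intact alleles passed, against 3.77% of all genes tested. Each is a test of a difference in the lead effect between genotypes. For Srr, lead minus saline from the median gene did not change steadily with the number of intact alleles. Cebpg was at -0.36 per allele, Aldh18a1 at -0.40, Psph at -0.35 and Srr at 0.56, with limma adjusted p of 0.0433, 0.0333, 0.0464 and 0.00464. The median gene was at -0.15, and none of the 4 passed after each array was centred on its median (-0.23, -0.26, -0.21 and 0.70, limma adjusted p = 0.206, 0.101, 0.202 and 0.184) or with GC-RMA (-0.30, -0.22, -0.39 and 1.07, limma adjusted p = 0.561, 0.513, 0.415 and 0.426). With PLIER, Psph at -0.52 (limma adjusted p = 0.0367) and Srr at 0.70 (limma adjusted p = 0.00442) passed and the other two did not. With the mean over probe sets, Cebpg at -0.29 (limma adjusted p = 0.0173) and Psph (limma adjusted p = 0.0135) passed and the other two did not. The other 2 Cebpg probe sets were at -0.20 and -0.29, the other 4 Aldh18a1 probe sets between -0.15 and 0.20, and the other 5 Srr probe sets between -0.17 and -0.03, while Psph has no other.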

How the results depend on the processing

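With the 6 arrays kept, no member was called for lead, Mt-KO, HET or the interaction under GC-RMA, PLIER, quantile normalization, array centring, no or a stricter brightness limit, the mean over probe sets, eBayes without trend or, for lead, no genotype block. Genotype paired the lead and saline pools in the lead fit, and the labels carry no replicate numbers by which pools could be paired further. The number of genes called (13 for lead, 47 for Mt-KO, 13 for HET, 412 for the interaction) was less stable. For lead it was 0 with GC-RMA, quantile normalization, centring, no brightness limit, the mean over probe sets, no trend and no genotype block, and 4 in the upper 40% of genes. For Mt-KO it was 0 with GC-RMA, 1 with quantile normalization, 7 with centring, 6 without the limit, 20 in the upper 40%, 10 with the mean over probe sets and 4 without trend. For HET it was 0 under those settings, save 6 in the upper 40% and 10 with PLIER. For the interaction it was 0 with GC-RMA, 142 with PLIER, 1 with quantile normalization, 20 with centring, 92 without the limit, 99 in the upper 40% and 79 without trend. Leaving out single arrays or pairs gave 1 to 2632 genes for lead, 8 to 4380 for Mt-KO, 3 to 2627 for HET and 15 to 1029 for the interaction, with 0 to 2 members called for lead, 0 to 3 for Mt-KO, 0 to 2 for HET and none for the interaction. The members' median then ran from -0.06 to 0.06 for lead, -0.13 to 0.15 for Mt-KO, -0.15 to 0.19 for HET and -0.26 to -0.05 for the interaction. In single pairs, GC-RMA put 1 member past 1.5-fold in the wild-type lead difference (Shmt2, 0.59), 1 in the HET lead difference (Phgdh, -0.81), 2 between HET and wild-type after saline (Phgdh 0.95 and Shmt2 0.62) and 1 between Mt-KO and HET after saline (Phgdh, -0.79). A fold limit lower than 1.5 put 1 member past in the wild-type lead difference and 1 between Mt-KO and wild-type after saline.

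Several signs turned, all on coefficients that did not pass save that of Srr in the interaction. For lead, Phgdh was at -0.22 with GC-RMA, -0.061 with quantile normalization and -0.0037 with centring. Mthfd2 was at 0.0002 with GC-RMA, 0.062 with PLIER (0.063 with the smaller pseudocount) and 0.052 with the mean over probe sets, and PLIER put Asns at 0.0071 and Chac1 at 0.022 (0.023 with the smaller pseudocount). For Mt-KO, Ddit3 was at -0.21 with GC-RMA, Mthfd2 at -0.034 with PLIER, Atf4 at 0.017 and Asns at 0.039 with quantile normalization, and Psat1 at -0.11 with the mean over probe sets. For the interaction, GC-RMA gave -0.21 for Phgdh and 0.045 for Shmt2, quantile normalization 0.012 for Atf4, 0.0002 for Ddit3 and 0.0425 for Asns, centring 0.061 for Ddit3 and 0.023 for Chac1, and the mean over probe sets -0.065 for Phgdh. With arrays left out, lead coefficients ran from -0.21 to 0.010 for Atf4, -0.0535 to 0.034 for Ddit3, -0.18 to 0.076 for Asns, -0.070 to 0.044 for Chac1, -0.057 to 0.050 for Phgdh and -0.14 to 0.097 for Mthfd2. Mt-KO coefficients ran from -0.12 to 0.27 for Psat1, -0.047 to 0.35 for Shmt2, -0.13 to 0.32 for Mthfd2, -0.28 to 0.12 for Atf4, -0.315 to 0.11 for Asns, -0.15 to 0.075 for Chac1 and -0.025 to 0.18 for Phgdh. Interaction coefficients ran from -0.16 to 0.0084 for Ddit3, -0.39 to 0.053 for Asns, -0.0001 to 0.21 for Phgdh, -0.37 to 0.0065 for Atf4 and -0.53 to 1.66 for Srr. The cause was not tested. With 1 pool a group, differences within these intervals were not detectable.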
